A study of Mus musculus with 12 samples.

Results

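The WNT signalling genes examined here are 45 protein-coding genes, chosen by name, of 28995 genes in the deposited tables. The rule took every gene named Wnt, Fzd, Sfrp, Dkk or Rspo with a number. It also took Frzb, Wif1, Lgr4, Lgr5, Lgr6, Axin2, Lef1 and Tcf7. The rule itself used names only, but the genes were chosen with earlier results of these data known. Shares of all genes given beside their counts are therefore a description. The rule gave 16 WNT ligands, 10 Frizzled receptors, 4 R-spondins, 3 LGR receptors, 9 secreted antagonists (grouped by name, with Dkk3) and 3 genes of pathway transcription and feedback. RNA was measured in primary hindlimb skeletal muscle fibroblasts of neonatal C57BL/10 wild-type mice, which were cultured in steroid-stripped serum and treated for 48 hours. Each group holds 4 libraries, from cells given 1 µM aldosterone, an agonist of the mineralocorticoid receptor, 1 µM spironolactone, its antagonist, or the DMSO vehicle alone. The cells were enriched by adherence and came from 2 mice, with 2 replicate plates for each mouse and treatment, so the 4 libraries of a group are not 4 animals and p-values partly measure spread between plates. Each library carries a sample number and a biological replicate number, and neither is stated to be the mouse. Values below are listed with the libraries of sample number 1 first (replicates 1 and 2) and those of sample number 2 after them (replicates 3 and 4).

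WNT proteins are secreted lipid-modified ligands that bind Frizzled receptors on the cell surface. With the co-receptors Lrp5 and Lrp6 they stabilise beta-catenin, which enters the nucleus and acts with TCF and LEF factors, while ligands such as Wnt5a mostly signal without beta-catenin, through planar cell polarity and calcium. R-spondins bind LGR receptors and keep Frizzled proteins on the cell surface, and the SFRP, Frzb and Wif1 proteins bind WNT ligands outside the cell, whereas Dkk1 and Dkk2 bind the co-receptors. In skeletal muscle, WNT ligands and their antagonists are made by fibroblasts and other cells and act on muscle stem cells and on fibroblasts themselves.

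The promoters of 4 members are shown because they are either the member with the highest level (Sfrp2) or those that were higher with aldosterone in a comparison (Wnt2, Fzd9 and Dkk2), and the receptor of aldosterone acts by binding DNA. They are the 250 bases before the RefSeq transcription start in GRCm38.p6, written 5′ to 3′ on the strand of the gene. Capitals mark matches on either strand to AGAACA (the core of the steroid receptor element), to TATAAA or to GGGCGG (the GC box). The TCF/LEF motif was searched as CTTTGAA, with its last base changed as CTTTGAT, with the base before that changed as CTTTGTA, and with both changed as CTTTGTT, and it had no match in these 4 windows. The Sfrp2 window is chr3:83766071-83766320 on the plus strand, that of Wnt2 is chr6:18030446-18030695 on the minus strand, that of Fzd9 is chr5:135251048-135251297 on the minus strand, and that of Dkk2 is chr3:132085042-132085291 on the plus strand.
Sfrp2: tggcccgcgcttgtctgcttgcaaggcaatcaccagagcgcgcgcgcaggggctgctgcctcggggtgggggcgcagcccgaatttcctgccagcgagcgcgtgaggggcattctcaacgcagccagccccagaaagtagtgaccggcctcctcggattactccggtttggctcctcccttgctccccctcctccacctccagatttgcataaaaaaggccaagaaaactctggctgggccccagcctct
Wnt2: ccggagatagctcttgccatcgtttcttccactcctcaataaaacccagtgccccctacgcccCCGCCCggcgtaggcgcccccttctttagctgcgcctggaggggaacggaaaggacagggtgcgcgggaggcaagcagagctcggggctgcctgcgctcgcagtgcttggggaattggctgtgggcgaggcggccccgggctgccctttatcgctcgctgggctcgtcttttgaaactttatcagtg
Fzd9: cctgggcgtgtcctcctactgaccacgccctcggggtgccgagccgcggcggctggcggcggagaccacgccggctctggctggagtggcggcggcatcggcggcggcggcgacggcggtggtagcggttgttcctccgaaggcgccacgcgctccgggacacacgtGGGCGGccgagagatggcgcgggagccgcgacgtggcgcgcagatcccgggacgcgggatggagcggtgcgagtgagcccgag
Dkk2: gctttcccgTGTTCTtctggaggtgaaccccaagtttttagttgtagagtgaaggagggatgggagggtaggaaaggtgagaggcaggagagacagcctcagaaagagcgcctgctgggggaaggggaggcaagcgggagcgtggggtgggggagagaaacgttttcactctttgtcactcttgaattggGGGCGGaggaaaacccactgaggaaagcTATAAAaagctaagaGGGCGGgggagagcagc

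A RefSeq promoter was found for 31 of the 45 members, with 38 promoters in all, since some members have several. The whole steroid receptor element, AGAACA followed by TGTTCT after a gap of 3 bases, was in 0 of these 38. It was in 0.00913% of 32851 promoters of the same length. Its core AGAACA was in 5 of the 38, from 4 members (Axin2, Dkk2, Lef1 and Wnt5b), and in 16.1% of all promoters. A TCF/LEF match was in 5 of the 38 against 14.8% of all promoters, TATAAA in 7 against 12.4%, and GGGCGG in 28 against 32.7%. The core also lies within the whole element, and matches of the GC box can overlap one another. Dkk2 holds the core, a TATA match and a pair of GC boxes, Wnt2 and Fzd9 hold a GC box each, and the Sfrp2 window holds none of these letters. A match is a description of the letters, and binding was not measured.

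Over the vehicle and aldosterone libraries 34 of the 45 members had a mean of at least 10 normalized counts. Levels of different genes in vehicle-treated cells are compared here as normalized counts per kb of gene length. The highest level belonged to Sfrp2, a secreted WNT-binding antagonist, at 5255 ± 447 (SD, n = 4, as for every mean ± SD below), followed by Dkk3, a secreted Dickkopf family protein, at 2953 ± 461. Among Frizzled receptors Fzd2 stood at 1236 ± 133, Fzd7 at 1008 ± 112, Fzd1 at 904 ± 139 and Fzd8 at 763 ± 64.9. Fzd7 and Fzd1 differed by less than either SD, while the steps from Fzd2 to Fzd7 and from Fzd1 to Fzd8 were larger than either SD. Fzd5, Fzd9, Fzd6 and Fzd4 lay between 83.6 and 189 per kb and Fzd3 at 12.2 per kb.

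The R-spondins Rspo2 and Rspo3 stood at 866 ± 14.5 and 436 ± 38.0 per kb, and the LGR receptors Lgr4 and Lgr5 at 568 ± 133 and 393 ± 20.6, so both sides of this ligand and receptor pair were at high level in the same cultures. Lgr6 stood at 5.24 per kb. Among WNT ligands Wnt5a, a ligand of the polarity branch, was the highest at 306 ± 22.3 per kb, followed by Wnt2 at 114 ± 11.6, with Wnt11, Wnt5b and Wnt9a between 56.0 and 63.3 and Wnt16, Wnt10b, Wnt10a, Wnt4 and Wnt2b between 4.61 and 37.1. Of the other antagonists Sfrp1 stood at 839 ± 145, Dkk2 at 298 ± 6.28, Frzb at 136 ± 9.65, Wif1 at 27.4 ± 5.02 and Sfrp4 at 9.75 ± 2.66 per kb. Axin2, a feedback inhibitor that beta-catenin induces in many cell types, stood at 21.3 ± 5.16, Tcf7 at 14.9 ± 4.46 and Lef1 at 1.92 ± 0.37 per kb.

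The other 11 members were low or absent. The highest library held 27 reads for Wnt6, 13 for Rspo1, 6 for Fzd10, 5 for Dkk1, and 4 each for Wnt7b and Sfrp5. Wnt1, Wnt3, Wnt7a, Wnt8a and Rspo4 had at most 3 reads in every library, which is taken here as the floor. The total of reads on genes was 19136923 to 30219185 per library. Whether counting used the strand is not stated, and Fzd10 and Rspo4 have antisense genes in the same tables, so their few reads cannot be told apart from those of the antisense partner.

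**Figure D1:**
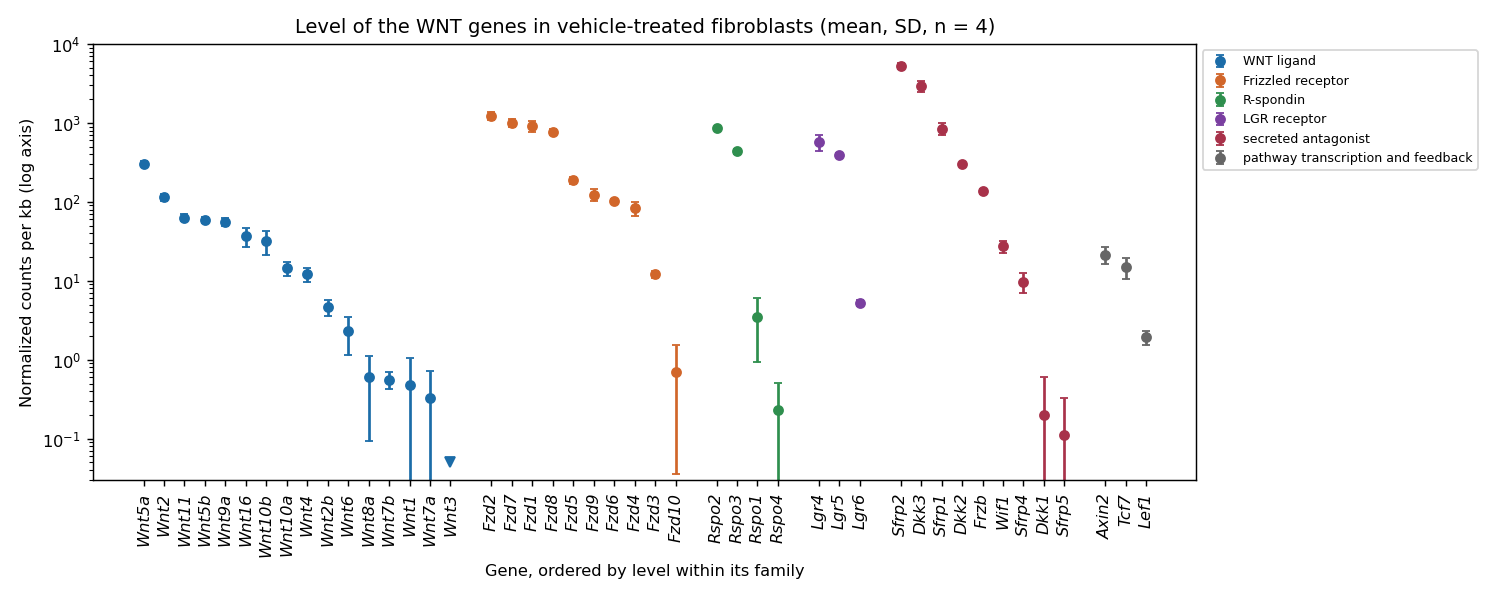
Level of each of the 45 genes in vehicle-treated fibroblasts, in normalized counts per kb on a log axis, grouped by family (points, mean; bars, SD; n = 4 libraries; the triangle marks Wnt3, at 0 in the vehicle libraries). Sfrp2 at 5255 and Dkk3 at 2953 stand at the top, and Wnt5a at 306 is the highest ligand.

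The first comparison asks how the genes differed after direct treatment with aldosterone. With aldosterone, the ligands Wnt5a, Wnt5b and Wnt16, the receptors Fzd2, Fzd6 and Fzd8, and Rspo2, Rspo3, Lgr4 and Lgr5 were lower than with vehicle. Dkk3 and the antagonists Sfrp2, Sfrp4 and Frzb were lower too, and Wnt2 and Fzd9 were higher. The test was limma's, on the log2 scale after adding 1 to each normalized count, with Benjamini-Hochberg adjustment over all 27319 genes of the table, and a gene passed at an adjusted p of at most 0.05. Of the 45 members 14 were lower and 2 higher, where 4.74% of all genes were lower and 5.68% higher. All 16 were among the 34 members with a mean of at least 10, and of all genes with such a mean 8.09% were lower and 9.65% higher. With the study's second threshold, an absolute log2 difference of at least 1, 4 members were lower (Sfrp2, Sfrp4, Lgr5 and Rspo2) and 0 higher, against 0.666% and 1.4% of all genes. The aldosterone libraries lay wholly below the vehicle libraries in 13 members and wholly above in 4, where this held for 6.9% and 7.55% of all genes. The median log2 difference was -0.15 over the 45 members and -0.01 over all genes. In bulk RNA, fewer cells of a type and less RNA per cell cannot be told apart.

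Of 6 steroid response genes 4 were higher with aldosterone and 1 lower. Fkbp5, a chaperone of steroid receptors, was 4.26 ± 0.08 higher on the log2 scale (difference ± SE, as for all differences below), with an adjusted p of 4.02e-15 in limma. Tsc22d3, Per1 and Zbtb16, further genes induced by corticosteroids, were higher by 2.69, 1.83 and 6.67. Nr3c1, which encodes the glucocorticoid receptor, fell by 0.41, and Nr3c2, which encodes the mineralocorticoid receptor, differed by -1.21 ± 0.42 and did not pass (limma adjusted p = 0.0853).

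**Figure D2:**
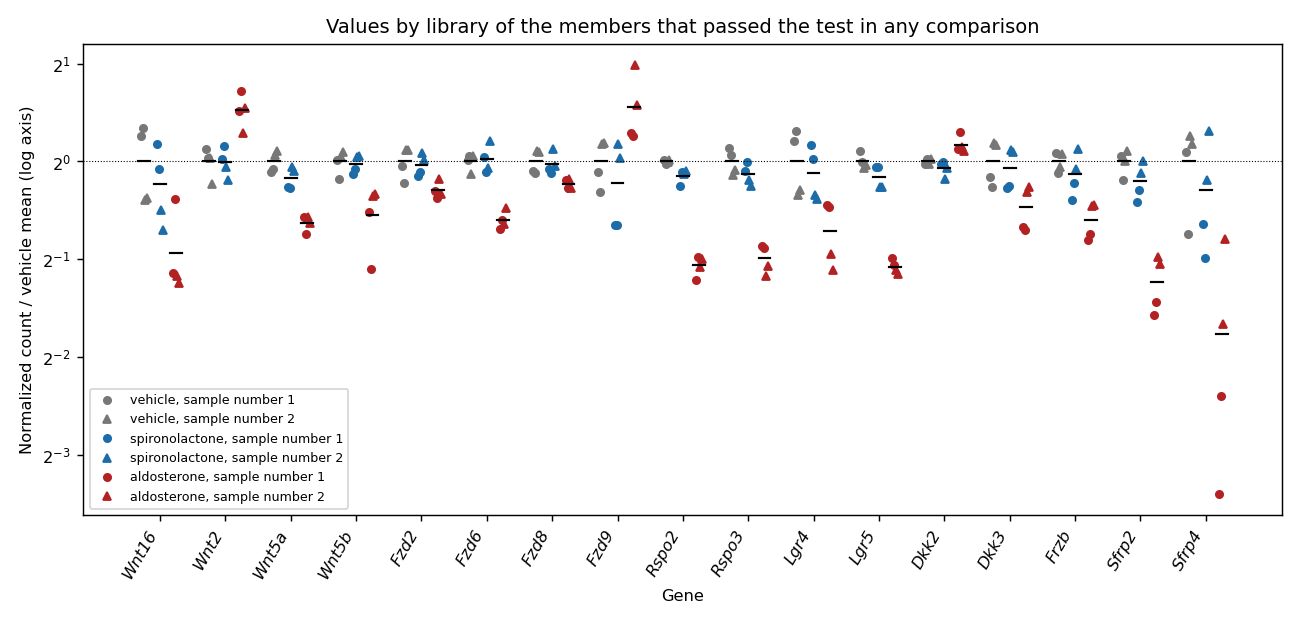
Normalized counts of each library divided by the vehicle mean of the same table, on a log axis, for the 17 members that passed the test in any comparison (circles, sample number 1; triangles, sample number 2; short lines, means of 4 libraries). Aldosterone libraries of Rspo2, Rspo3, Lgr5 and Sfrp2 lie far below the others, and those of Wnt2 and Fzd9 lie above the vehicle libraries. Spironolactone libraries lie near the vehicle libraries in most members. For Fzd9 the spironolactone libraries of sample number 1, at 182 and 182 normalized counts, lie below the vehicle libraries, at 230 to 324.

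Among WNT ligands 3 were lower and 1 higher with aldosterone. Wnt5a, the ligand of highest level, had 2219, 2271, 2514 and 2570 normalized counts in the vehicle libraries and 1613, 1432, 1611 and 1547 in the aldosterone libraries. All 4 aldosterone libraries lay below every vehicle library, and the difference was -0.62 ± 0.06 (limma adjusted p = 4.70e-06). Its close relative Wnt5b had 159, 139, 162 and 169 normalized counts with vehicle and 110, 73.2, 123 and 125 with aldosterone. These groups did not overlap either, and the difference was -0.57 ± 0.16 (limma adjusted p = 0.0336), but the adjusted p was above 0.05 without vehicle replicate 1, 3 or 4 or aldosterone replicate 1 or 2 and reached 0.0905.

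Wnt16, a ligand best known from bone and joint, had 194, 206, 123 and 125 normalized counts in the vehicle libraries and 73.6, 124, 71.8 and 68.3 in the aldosterone libraries. Aldosterone replicate 2 was the only aldosterone library within the vehicle range, and the difference was -0.93 ± 0.21 (limma adjusted p = 0.00769). Wnt2, which signals through beta-catenin in lung and heart, moved the other way, with 280, 263, 264 and 219 normalized counts with vehicle and 368, 424, 315 and 374 with aldosterone. The lowest aldosterone library lay above the highest vehicle library, and Wnt2 was 0.53 ± 0.11 higher (limma adjusted p = 0.00310), a mean 1.44-fold that of vehicle.

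The other ligands with a mean of at least 10 did not pass. Wnt4 differed by -0.61 ± 0.24 (limma adjusted p = 0.138), and Wnt11, Wnt10b, Wnt2b, Wnt9a and Wnt10a differed by between -0.15 and 0.15, each with SE of at least 0.14. The 6 ligands below that mean had too few reads for their differences to be read.

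Of the 10 Frizzled receptors 3 were lower and 1 higher. Fzd6, a receptor of the polarity branch, had 503, 515, 455 and 515 normalized counts with vehicle and 309, 329, 319 and 358 with aldosterone. The groups were far apart, with a difference of -0.60 ± 0.08 (limma adjusted p = 7.72e-05), and the mean fell by 33.9%. Fzd2, the Frizzled of highest level, had 4395, 3895, 4919 and 4905 normalized counts with vehicle and 3679, 3491, 4005 and 3593 with aldosterone, and Fzd8 had 4245, 4200, 4912 and 4873 with vehicle and 3985, 3766, 4033 and 3772 with aldosterone. Both differences were small, -0.29 ± 0.07 for Fzd2 (limma adjusted p = 0.0156) and -0.23 ± 0.06 for Fzd8 (limma adjusted p = 0.0280), and the groups of Fzd2 overlapped. Without vehicle replicate 3 or 4 or aldosterone replicate 2, neither passed, with adjusted p up to 0.0629 for Fzd2 and 0.104 for Fzd8, and Fzd8 also did not pass without aldosterone replicate 4 (0.0749).

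Fzd9, a less abundant receptor, was the member of this family that was higher. It had 263, 228, 320 and 322 normalized counts in the vehicle libraries and 346, 339, 560 and 424 in the aldosterone libraries. Every aldosterone library lay above every vehicle library, by 0.54 ± 0.15 in the fit (limma adjusted p = 0.0254), and aldosterone replicate 3 was the highest. Without vehicle replicate 1 or 2 or aldosterone replicate 3 or 4 the adjusted p lay above 0.05, up to 0.0918, with differences of 0.39 to 0.52. Fzd1 had means of 4482 ± 636 with aldosterone and 3793 ± 583 with vehicle, a difference of 0.24 ± 0.10 that did not pass (limma adjusted p = 0.189) but did once the sample number entered as a block (adjusted p = 8.71e-05). Fzd3, at -0.33 ± 0.12, had groups that did not overlap but an adjusted p of 0.0990 in limma. Fzd4, Fzd5 and Fzd7 differed by 0.11, -0.04 and -0.09 and did not pass.

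Both R-spondins that were detected at a mean of at least 10, and 2 of the 3 LGR receptors, were lower with aldosterone. Rspo2, a secreted enhancer of WNT reception (chromosome 15, 42884190 to 43034222 in the tables), had 4488, 4335, 4404 and 4488 normalized counts with vehicle and 1913, 2253, 2093 and 2221 with aldosterone. The libraries of each group were close together, and the difference was -1.07 ± 0.06 (limma adjusted p = 2.53e-09), and the mean fell by 52.1%. Rspo3, its relative, had 1478, 1414, 1229 and 1271 normalized counts with vehicle and 739, 730, 600 and 642 with aldosterone. It differed by -0.99 ± 0.08 (limma adjusted p = 3.20e-07), just short of the fold threshold of 1, with no overlap of the groups.

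Lgr5, a receptor of R-spondins best known as a marker of epithelial stem cells (chromosome 10, 115286216 to 115423685), had 4337, 4019, 3853 and 3938 normalized counts with vehicle and 2033, 1938, 1869 and 1814 with aldosterone. The difference was -1.08 ± 0.06 (limma adjusted p = 1.96e-09), and the mean fell by 52.6%, again with every aldosterone library below every vehicle library. Lgr4, the more widely expressed receptor, had 3858, 4160, 2629 and 2724 normalized counts with vehicle and 2462, 2420, 1732 and 1546 with aldosterone. It was higher in sample number 1 than in 2 under both treatments, and its difference was -0.71 ± 0.16 (limma adjusted p = 0.00612). Lgr6, at 35.9 ± 3.35 normalized counts with vehicle and 22.0 ± 4.90 with aldosterone, differed by -0.70 ± 0.26 with groups that did not overlap, and did not pass with limma (adjusted p = 0.116) but did with edgeR (0.0428). Rspo1 had means of 6.79 normalized counts with vehicle and 7.26 with aldosterone.

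Of the 9 members grouped by name as secreted antagonists, Dkk3 among them, 4 were lower with aldosterone and 0 higher. Sfrp2, the member of highest level, lies at chromosome 3, 83673628 to 83681623, in the tables' own positions, which are mm39 by the submitters' processing notes. It had 11778, 9947, 11387 and 12147 normalized counts with vehicle and 3818, 4176, 5756 and 5458 with aldosterone. The mean fell by 57.6% and the difference was -1.25 ± 0.11 (limma adjusted p = 5.87e-07). Sfrp4, a related antagonist at a far lower level, had 43.6, 24.4, 48.8 and 46.2 normalized counts with vehicle and 3.88, 7.71, 12.9 and 23.5 with aldosterone. Its difference of -1.88 ± 0.44 (limma adjusted p = 0.00920) was the largest among the members that passed, with a wide error, and the lowest vehicle library lay just above the highest aldosterone library.

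Frzb, also known as Sfrp3, had 469, 406, 422 and 465 normalized counts with vehicle and 253, 264, 321 and 323 with aldosterone. The groups did not overlap and the difference was -0.61 ± 0.10 (limma adjusted p = 0.000476). Dkk3 had 8918, 8280, 11333 and 11151 normalized counts with vehicle and 6221, 6122, 8017 and 8290 with aldosterone. Dkk3 was lower with aldosterone within each sample number, and its groups overlapped only between sample numbers, with a difference of -0.47 ± 0.11 (limma adjusted p = 0.0104).

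Dkk2, a ligand of the WNT co-receptors, had 1083, 1122, 1087 and 1128 normalized counts with vehicle and 1210, 1366, 1222 and 1187 with aldosterone. These groups did not overlap, but the difference of 0.17 ± 0.06 did not pass (limma adjusted p = 0.0964); it did with edgeR (0.0439) and with a block on the sample number (0.0234). Sfrp1 differed by -0.21 ± 0.12 and did not pass (limma adjusted p = 0.345), but did with the block (0.000358). Wif1 differed by -0.54 ± 0.26 (limma adjusted p = 0.252), and Dkk1 and Sfrp5 had too few reads.

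The 3 genes of pathway transcription and feedback did not pass. Axin2 had 114, 86.8, 113 and 156 normalized counts with vehicle and 141, 115, 147 and 108 with aldosterone. These groups overlapped throughout, and the difference of 0.14 ± 0.17 had a 95% interval of -0.20 to 0.47 (limma adjusted p = 0.710). Lef1 had 12.6, 17.6, 17.1 and 20.4 normalized counts with vehicle and 28.4, 17.3, 34.1 and 29.8 with aldosterone, a difference of 0.64 ± 0.31 (limma adjusted p = 0.255). Tcf7 differed by -0.09 ± 0.28 (limma adjusted p = 0.912).

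**Figure D3:**
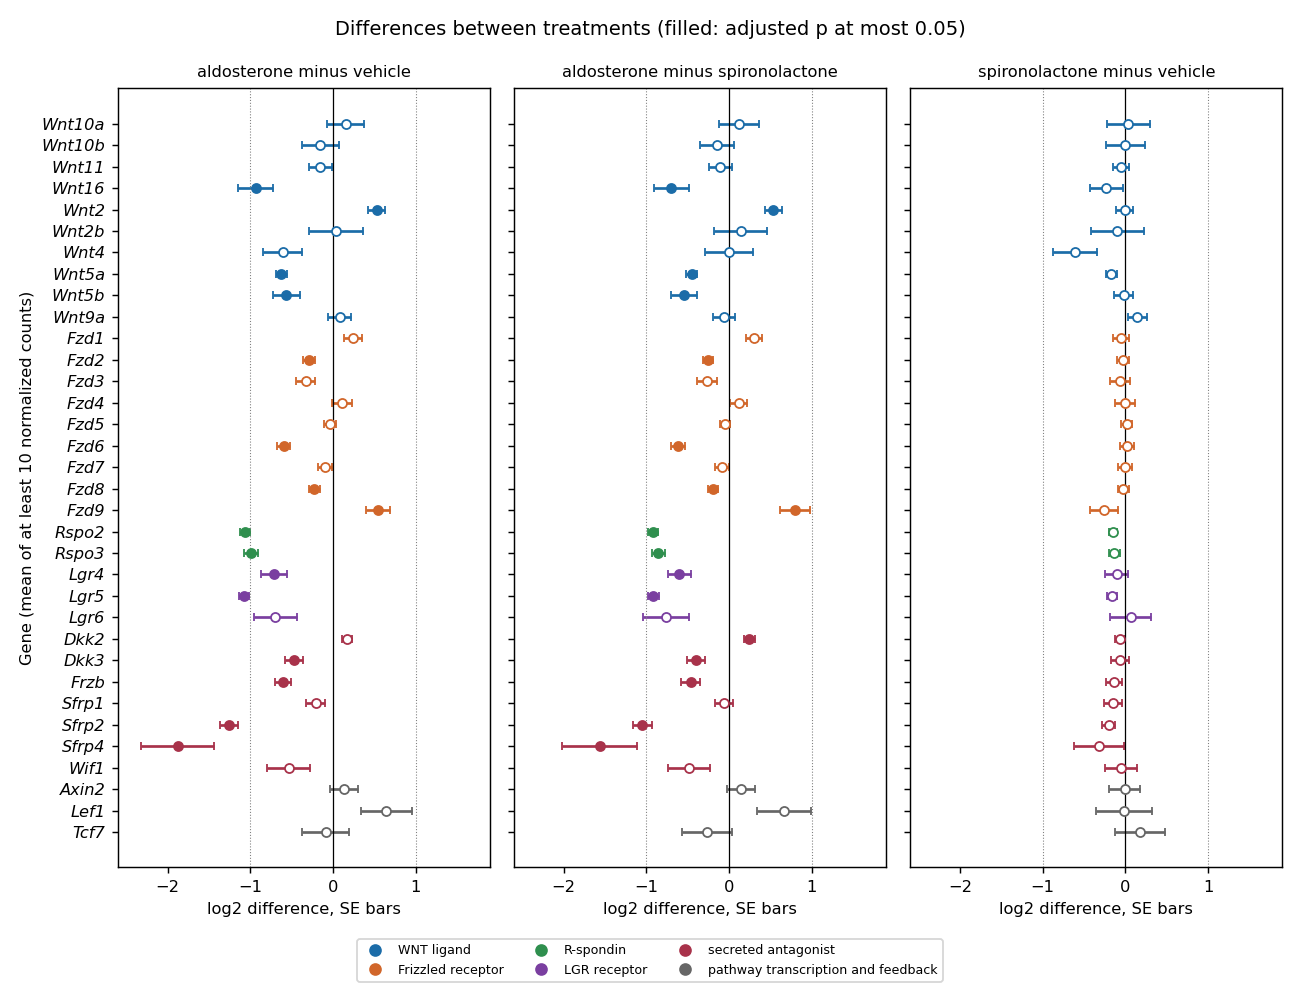
Log2 differences of the 34 members with a mean of at least 10, in 3 panels for the 3 comparisons (points, difference on log2(normalized count + 1); bars, SE; filled points, adjusted p at most 0.05; dotted lines, log2 differences of 1 in each direction). Points of Wnt5a, Wnt5b, Wnt16, Fzd6, Rspo2, Rspo3, Lgr4, Lgr5, Sfrp2, Sfrp4 and Frzb lie to the left in both aldosterone panels. Those of Wnt2 and Fzd9 lie to the right, and none is filled in the panel of spironolactone minus vehicle.

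The second comparison set aldosterone against spironolactone at the same dose and time. It uses the same aldosterone libraries as the first, scaled together with the spironolactone libraries, so the 2 comparisons are not independent. Among the 44 members tested, 14 were lower and 3 higher, against 3.96% and 4.93% of all 27631 genes and 6.78% and 8.39% of genes with a mean of at least 10. Past both thresholds 2 were lower (Sfrp2 and Sfrp4) and 0 higher, against 0.521% and 1.38% of all genes. Groups did not overlap in 11 members that were lower and 3 that were higher, against 6.22% and 6.76%. Sfrp2 had 8743, 9459, 10671 and 11673 normalized counts in the spironolactone libraries, against 3934, 4291, 5915 and 5607 with aldosterone. It differed by -1.05 ± 0.11 (limma adjusted p = 5.07e-06), where the difference against vehicle was -1.25, and lay at -0.95 without aldosterone replicate 1. Sfrp4 had 26.8, 21.1, 36.7 and 52.0 normalized counts with spironolactone and differed by -1.57 ± 0.45 (limma adjusted p = 0.0370). The groups of Sfrp4 overlapped, and its adjusted p was 0.0515 with edgeR and up to 0.141 without aldosterone replicate 1 or 2 or spironolactone replicate 1, 3 or 4.

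Rspo2 had 3835, 4205, 4159 and 4244 normalized counts with spironolactone, and aldosterone differed from them by -0.92 ± 0.06 (limma adjusted p = 1.57e-08). Lgr5 had 3978, 3985, 3460 and 3465 normalized counts with spironolactone and differed by -0.92 ± 0.06 (limma adjusted p = 2.47e-08). Rspo3 had 1300, 1377, 1213 and 1161 normalized counts with spironolactone and differed by -0.86 ± 0.08 (limma adjusted p = 7.14e-07). All 3 were past the adjusted p but not the fold threshold, and in each the aldosterone libraries lay below every spironolactone library. Lgr4, at 3873, 3484, 2697 and 2624 with spironolactone, differed by -0.60 ± 0.14 (limma adjusted p = 0.00931).

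Wnt5a had 2054, 2039, 2362 and 2289 normalized counts with spironolactone and differed by -0.45 ± 0.06 (limma adjusted p = 0.000116). Wnt2 had 268, 295, 254 and 231 normalized counts with spironolactone, and was 0.53 ± 0.10 higher with aldosterone (limma adjusted p = 0.00207). The polarity ligand was thus lower and Wnt2 higher against either control, with no overlap. Wnt5b had 148, 153, 166 and 168 normalized counts with spironolactone and differed by -0.54 ± 0.16 (limma adjusted p = 0.0389). Wnt16 had 189, 157, 118 and 102 and differed by -0.70 ± 0.21 (limma adjusted p = 0.0468). Both lay near the threshold: in 6 of the 8 fits that left out 1 library their adjusted p was above 0.05, up to 0.108 for Wnt5b and 0.177 for Wnt16; those left out were aldosterone replicates 1 and 2 and each spironolactone library for Wnt5b, and aldosterone replicates 1, 3 and 4 and spironolactone replicates 1, 2 and 3 for Wnt16.

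Fzd6 had 529, 473, 488 and 589 normalized counts with spironolactone and differed by -0.62 ± 0.09 (limma adjusted p = 8.82e-05). Fzd9 had 186, 186, 329 and 298 normalized counts with spironolactone, and was 0.80 ± 0.18 higher with aldosterone (limma adjusted p = 0.00813). Neither receptor had libraries that overlapped between these groups. Fzd2 had 4200, 4329, 4930 and 4682 with spironolactone (difference -0.26 ± 0.06, limma adjusted p = 0.0141). Fzd8 had 4431, 4321, 5122 and 4525 (difference -0.20 ± 0.06, limma adjusted p = 0.0483). Leaving out aldosterone replicate 2 or spironolactone replicate 3 or 4 took Fzd2 past 0.05, to at most 0.0653, and Fzd8 kept an adjusted p of at most 0.05 only without spironolactone replicate 2, with values of up to 0.186 otherwise.

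Frzb had 345, 388, 429 and 495 normalized counts with spironolactone and differed by -0.47 ± 0.11 (limma adjusted p = 0.0130, and 0.0586 without spironolactone replicate 4). Dkk3 had 8425, 8563, 11070 and 10851 normalized counts with spironolactone and differed by -0.40 ± 0.11 (limma adjusted p = 0.0219). Its adjusted p rose to at most 0.0903 without aldosterone replicate 1 or 2 or spironolactone replicate 3 or 4. Dkk2 had 1116, 1131, 1004 and 1082 normalized counts with spironolactone, and passed as 0.24 ± 0.06 higher with aldosterone (limma adjusted p = 0.0247), but not without aldosterone replicate 2 or spironolactone replicate 3 or 4 (up to 0.0971). Fzd1 did not pass (0.30 ± 0.09, limma adjusted p = 0.0593), but did with a block on the sample number (2.24e-06) and with DESeq2 (0.0308). Axin2, Lef1 and Tcf7 differed by 0.14, 0.66 and -0.27 and did not pass.

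The third comparison set spironolactone against vehicle. With limma 0 of 45 members and 0.0% of 27598 genes passed, while 5 members (Rspo2, Lgr5, Wnt5a, Sfrp2 and Wnt4) and 1251 genes had an unadjusted p under 0.05, and DESeq2 and edgeR called 0 members as well. The 95% intervals of the differences were -0.21 to 0.20 for Wnt2 and -0.14 to 0.18 for Fzd6. For Rspo2 the interval was -0.25 to -0.05, for Lgr5 -0.28 to -0.04, for Wnt5a -0.30 to -0.04 and for Sfrp2 -0.36 to -0.04, and these intervals are not adjusted for the number of genes. Rspo2 was the only member whose groups did not overlap, with spironolactone lower, where this held for 1.24% of all genes, and 0 members had spironolactone wholly higher, against 1.39%. Its spironolactone libraries had 3753, 4123, 4078 and 4162 normalized counts and its vehicle libraries 4368 to 4516. With a block on the sample number 1 member passed, Sfrp2, at -0.20 with a limma adjusted p of 0.0354. The share of all genes given above is from the fit without the block, so it cannot be set beside this call.

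Several members also differed between the sample numbers of the labels. Lgr4 averaged 4009 normalized counts in the vehicle libraries of sample number 1 and 2677 in those of sample number 2, and 2441 and 1639 with aldosterone. Sfrp1 averaged 4215 and 3126 with vehicle and 3613 and 2718 with aldosterone, whereas Dkk3 was the lower in sample number 1, at 8599 against 11242 with vehicle. Rspo2 was at the same level in both, 4412 and 4446 with vehicle and 2083 and 2157 with aldosterone. The aldosterone differences within each sample number were -0.71 and -0.71 for Lgr4, -0.48 and -0.46 for Dkk3, -1.09 and -1.04 for Rspo2, and -1.44 and -1.07 for Sfrp2. The interaction of treatment and sample number, tested with limma, passed for 0 of 45 members and 4 of 27319 genes. Sfrp2, Wnt11, Fzd8 and Wnt1 had an unadjusted p under 0.05, where 1356 of all genes did.

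**Figure D4:**
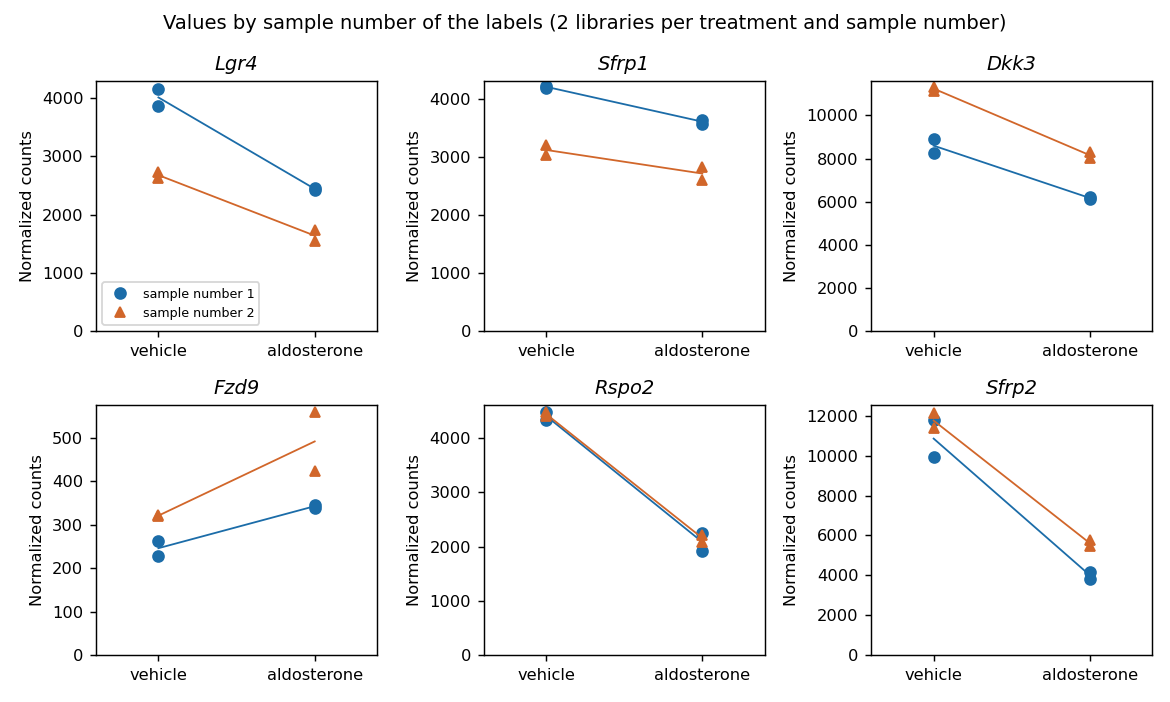
Normalized counts by library of 6 members with vehicle and aldosterone, split by the sample number of the labels (points, libraries; lines, means of 2 libraries; axes start at 0). The lines of Lgr4, Sfrp1 and Dkk3 run apart and side by side, while those of Rspo2 nearly coincide.

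Genes of the pathway outside the 45 were taken from 4 lists, counted here against vehicle beside the shares of all genes given above (5.68% higher and 4.74% lower). In the order below, 18 of 22, 27 of 27, 17 of 18 and 15 of 16 genes had a mean of at least 10. Of all genes with such a mean 9.65% were higher and 8.09% lower, the closer background for these lists. Of 22 genes of WNT secretion and co-receptors 4 were higher and 4 lower, with a median log2 difference of 0.02. Ror1, a receptor of Wnt5a, was 0.97 ± 0.10 higher (limma adjusted p = 7.65e-06), with means of 787 and 405 normalized counts, and Gpc3, a cell surface proteoglycan that binds WNT ligands, was 0.84 ± 0.06 higher (limma adjusted p = 7.83e-08). Ptk7, a co-receptor of the polarity branch, and Sdc1, a cell surface proteoglycan, fell by 0.38 and 0.37 on the log2 scale. Lrp6, the co-receptor itself, fell by 0.33 and Wls, which carries WNT ligands to the cell surface, by 0.31. Sostdc1 and Kremen1 made up the 4 that were higher.

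Of 27 genes of the destruction complex and nuclear effectors 2 were higher and 1 lower, with a median of -0.06. Ctnnb1, which encodes beta-catenin, had means of 16136 normalized counts with aldosterone and 13308 with vehicle and was 0.28 ± 0.05 higher (limma adjusted p = 0.00183). Tle1, a corepressor of TCF factors, was 0.67 ± 0.07 higher (limma adjusted p = 6.55e-06), and Dvl3, which relays the signal from Frizzled receptors, fell by 0.29. Of 18 target genes found in the table (20 listed) 6 were higher and 2 lower, with a median of 0.29. Vcan, a matrix proteoglycan, was 0.85 ± 0.06 higher and Ccn1, a matricellular protein, 0.74 ± 0.07 higher, while Ccn4, a matricellular protein first named for its induction by WNT, fell by 0.93 and Nkd1, a feedback inhibitor, by 0.32. Fst, Ccnd1, Prickle1 and Myc were the others that were higher, and many genes of this list also respond to other signals. Of 16 planar cell polarity genes 1 was higher (Daam2, by 0.37) and 4 were lower (Vangl2, which fell by 0.55, Fat4, by 0.45, and Scrib and Mapk8). No gene of the 4 lists was past both thresholds against vehicle. Against spironolactone Draxin was, at 1.05 ± 0.28 higher (limma adjusted p = 0.0219) with groups that overlapped.

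**Figure D5:**
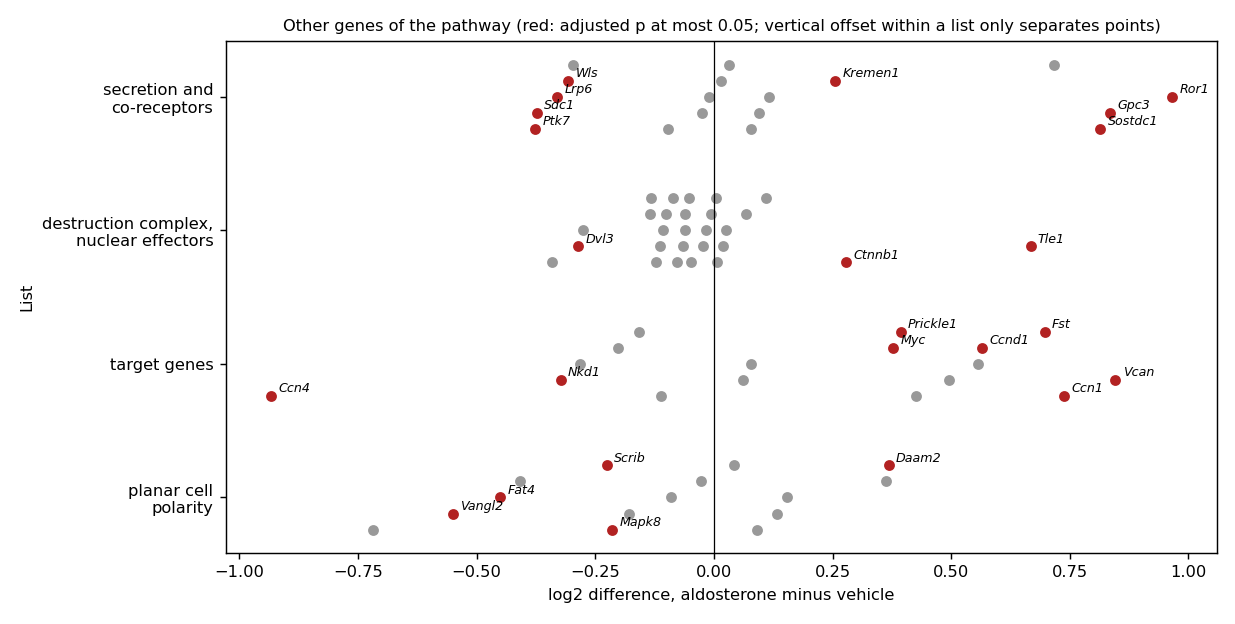
Log2 differences between aldosterone and vehicle of the genes in the 4 other pathway lists (red and named, adjusted p at most 0.05; grey, not passed; vertical offsets only separate points). Ror1, Gpc3 and Vcan lie farthest to the right and Ccn4 farthest to the left among the named genes.

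The cultures carried fibroblast markers at high level (all 10 with a mean of at least 10). Their sums were lower, 1.40e+06 to 1.58e+06 normalized counts with aldosterone against 1.67e+06 to 1.77e+06 with vehicle. The median log2 difference of the 10 was -0.23. Pdgfra was 0.91 ± 0.06 higher with aldosterone, Vim was 0.48 higher and Col3a1 fell by 0.43, and the others did not pass. Other marker lists moved with the treatment too, where 5.68% of all genes were higher and 4.74% lower. Of genes with a mean of at least 10 these shares were 9.65% and 8.09%. All 5 proliferation markers were lower with aldosterone, with summed levels of 5372 to 6293 normalized counts against 9105 to 9402 with vehicle. These are RNA levels. In its EdU assay the study found no significant difference in proliferation of neonatal wild-type fibroblasts treated with aldosterone. Of 4 adipocyte markers 2 were higher (Fabp4 by 2.45 and Plin1 by 1.78), with sums of 1190 to 1425 against 392 to 493, while Adipoq did not pass. Of 6 myogenic markers in the table Acta1 was lower, with sums of 210 to 449 against 521 to 776, and Pax7, Myod1 and Myog had means below 3 in both groups. Of 6 endothelial markers Kdr was higher, with sums of 690 to 765 against 481 to 539, and Pecam1 and Tie1 had means below 7. Macrophage markers (0 of 5 passed) summed to 206 to 245 against 201 to 293, with Ptprc at 0 in every aldosterone library and Adgre1 at 0 in every vehicle library, and pericyte markers (0 of 5 passed) to 7067 to 10911 against 9322 to 12004. Of 4 Schwann cell markers S100b was higher, with sums of 314 to 453 against 240 to 323. Of 6 tendon and cartilage markers Scx and Tnmd were lower and Sox9 higher, with sums of 39435 to 76411 against 28263 to 58681. The part of these markers in the differences of the WNT genes was not tested.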

How the data were processed

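Poly(A) RNA of fibroblasts was sequenced by the authors, 4 libraries for each treatment. The authors deposited 1 table per pair of groups, which holds normalized counts (signal values: the counts of a gene scaled by a per-library size factor). The authors also deposited log2 fold changes and p-values of DESeq2 in these tables, and none of those were used. The submitters' processing notes name HISAT2 2.0.5, featureCounts 1.5.0-p3 and mm39, while the study's methods name mm9. Positions of the tables are kept apart from those of the promoters, which come from RefSeq (GRCm38.p6). The reads behind the values were recovered, with all values whole at a tolerance of 0.01 of a read.

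Each table was tested with limma 3.58.1 (R 4.3.3, trend in the prior variance) on log2(normalized count + 1), treatment as the only factor, since the values are normalized and not whole-number counts, for which the plan named edgeR. Thresholds were those of the study. The members and lists were chosen with earlier results of these data known. Named were all members, and of the other pathway lists genes past both thresholds or the 2 highest and 2 lowest that passed. The rest of those that passed were named without values, except Lrp6 and Wls, whose values are given too. Deviations from group means correlated between libraries of 1 sample number across treatments (mean r 0.22, range 0.13 to 0.29 over 24 pairs), and not by biological replicate number (mean r -0.0034). The sample number thus pairs the libraries, and the main test did not use this pairing. On simulated counts for aldosterone and vehicle (27003 genes) limma recovered 200 of 200 changed genes with 7 false calls past both thresholds. The changed genes were well expressed, and their simulated differences were larger than that of any member that passed. The simulated libraries were independent of each other. This run therefore cannot show how well smaller differences, or plates that share a mouse, are recovered.

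Alternatives were a pseudocount of 0.5, a mean of at least 10, blocks on either number, TMM scaling, edgeR 4.0.16 and DESeq2 1.42.0 on recovered reads, and leaving out each library. Genes left without any spread after a library was taken out were kept out of that fit. Counting depth limits genes of few reads, and intervals cover the spread between libraries.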

Additional observations from a re-analysis of the deposited data

Results flagged for a closer look

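In 102 groups of 4 libraries (34 members with a mean of at least 10, in each treatment) Dixon's test marked 2 libraries, where chance alone marks about 1 in 20. Wnt16 stood at 124.3 normalized counts in aldosterone replicate 2, with the nearest aldosterone library at 73.6. Without that library the difference of Wnt16 from vehicle was -1.13. Wnt10a stood at 54.0 normalized counts in spironolactone replicate 3, with the nearest spironolactone library at 33.6, and Wnt10a passed in no comparison.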

How the results depend on the processing

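No member's difference that passed changed its sign under an alternative. Against vehicle the number of members that passed as higher was 4 with the replicate block on the sample number, which added Fzd1 and Dkk2, and the block added Sfrp1 to those that were lower; against spironolactone the number lower past both thresholds was 1 with edgeR, and for spironolactone against vehicle 1 member passed as lower with the replicate block. The block changed no other call except that of Fzd1 against spironolactone. Shares of all genes that passed with the block are not given here. Leaving out each library in turn gave 1 to 2 members higher and 11 to 14 lower against vehicle, and 2 to 4 higher and 8 to 12 lower against spironolactone. Past both thresholds it gave 4 to 6 lower against vehicle and 0 to 2 lower against spironolactone, 0 higher in both, and 0 throughout for spironolactone against vehicle and for the interaction. Of 16 members that passed against vehicle 12 did so in every such fit, and of 17 against spironolactone 9 did. These fits had no block, and leaving out a library also unbalances the sample numbers. With the block and all libraries, all 16 and all 17 passed. The 4 that failed a fit against vehicle had limma adjusted p of 2.74e-05 (Fzd2), 0.000348 (Fzd8), 1.56e-05 (Fzd9) and 0.00236 (Wnt5b) with the block. The block does not make the plates of 2 mice into more animals. TMM scaling moved the median difference of all genes by at most 0.0071. Against spironolactone, Wnt16 did not pass with a block on the biological replicate number (adjusted p = 0.0693), the filter on the mean (0.0552) or edgeR (0.0589), and Wnt5b did not pass with that block (0.0515).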

Other observations

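Wnt4, a ligand with roles in kidney and gonad, was chosen here after its values were seen. It had 53.7, 63.4, 41.5 and 44.0 normalized counts in the vehicle libraries, 42.6, 33.7, 30.4 and 25.1 in the aldosterone libraries of the same table, and 45.0, 44.7, 20.5 and 29.6 in the spironolactone libraries of the table shared with aldosterone. In all 3 groups the libraries of sample number 2 were the lower. The log2 difference from vehicle was -0.61 ± 0.24 with aldosterone and -0.61 ± 0.27 with spironolactone, against the same vehicle libraries, and neither passed with limma (adjusted p = 0.138 and 0.934). Sfrp5 had between 0.96 and 3.68 normalized counts in the aldosterone libraries and at most 0.84 in the vehicle libraries, too few to compare.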
